A study of Arabidopsis thaliana with 4 samples.

Results

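Transcript levels of 10 Arabidopsis thaliana enzyme genes that inactivate the auxin indole-3-acetic acid (IAA) were compared between ethylene and air. The genes are 8 members of the GH3 family (GH3.1, GH3.2, GH3.3, GH3.4, GH3.5, GH3.6, GH3.9 and GH3.17) and the paired oxidase genes DAO1 and DAO2. They were chosen by locus, from the known roles of the enzymes, but with earlier results of these data known. All 10 were found among the 33414 loci named in the deposited table, each in a single entry that named it alone. The seedlings were srt1srt2 mutants in the Col background, carrying mutations in the sirtuin (NAD-dependent deacetylase) genes SRT1 and SRT2, and both groups shared this genotype. They were grown in darkness for 3 days at 24 °C and then spent 4 hours in hydrocarbon-free air or in that air with 10 ppm ethylene. Each condition had 2 libraries, which the authors pooled into 1 FPKM value per gene (fragments per kilobase of transcript, scaled to the number of mapped fragments). The mutant alleles are not stated in the labels, and the name of the deposited table gives srt1srt2 for the whole file but srt1 for the sheet within it. Wild-type libraries were not analysed here. Nothing below therefore separates the response of the mutant from that of the wild type.

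IAA is held at a working level by synthesis, transport and inactivation. GH3 enzymes join IAA to amino acids such as aspartate and glutamate, and DAO enzymes oxidise auxin to oxidised forms that are inactive. Several GH3 genes are themselves switched on by auxin, so that a rise in auxin calls up its own removal. In the dark-grown seedling, auxin gradients shape the apical hook and hypocotyl growth, and ethylene exaggerates the hook through them.

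Since only pooled values were analysed, the spread between libraries cannot be shown, nor whether the groups overlapped. The test is the authors' own, from Cuffdiff, with its deposited q-value (p adjusted over all tested entries). A gene is called higher or lower where that q is 0.05 or less. The error beside a log2 ratio is a standard error (SE), computed by dividing that ratio by Cuffdiff's own test statistic. Several genes share the q of 0.000878, which goes with the smallest p the deposited test gives, so they cannot be ranked by it. Whether the 2 libraries of a condition came from separate plant batches is not stated, so the spread behind that test may be technical. In whole seedlings, fewer cells of an expressing type and less RNA per cell cannot be told apart. As checks, PORA, a chlorophyll synthesis enzyme abundant in dark-grown tissue, measured 397 FPKM in air against 583 in ethylene. PORB, its close relative, measured 701 against 981 FPKM, and both were called higher in ethylene (Cuffdiff q of 0.000878 and 0.0259). The ethylene-inducible genes ETR2, ERS2, EBF2 and ERF1 were all called higher in the deposited table. SRT1 measured 3.88 FPKM in air against 3.23 in ethylene, and SRT2 1.92 against 2.09. Neither was called (Cuffdiff q of 0.735 and 0.937), and without a wild type these levels do not check the genotype.

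Auxin-inactivating genes moved in different directions. Of the 10 genes, 8 had enough reads for the authors' test. Among those 8, GH3.2 rose, GH3.3, GH3.17 and DAO2 fell, and GH3.1, GH3.5, GH3.6 and DAO1 were not called. That is 1 of 8 higher and 3 of 8 lower. As background, the authors' test called 11.3% of all 20786 gene-naming entries it covered, 4.79% higher and 6.5% lower. A share of 8 genes is coarse, since each gene moves it a good deal. The median log2((ethylene FPKM + 1)/(air FPKM + 1)) of the 8 was -0.35, against 0.0078 over all tested entries that name a gene. That median lies midway between GH3.1 (-0.62) and GH3.6 (-0.085), which were not called and had the widest SEs of the 8 (0.74 and 0.78). It is therefore imprecise.

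**Figure D1:**
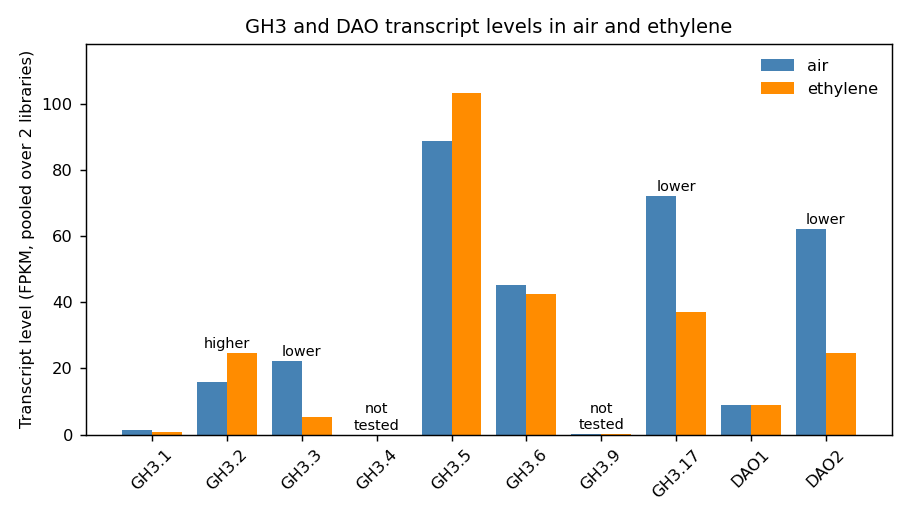
Bars give the authors' pooled FPKM value of each gene in air (blue) and in ethylene (orange), with no error bars because each condition has 1 pooled value; "higher" and "lower" mark genes called at a deposited Cuffdiff q of 0.05 or less, and "not tested" marks genes with too few reads. GH3.5 is the tallest in both conditions, and GH3.3, GH3.17 and DAO2 stand lower in ethylene.

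GH3.2 and GH3.3 are auxin-inducible synthetases that make IAA-amino acid conjugates, and they moved apart. GH3.2 (AT4G37390, RefSeq symbol BRU6, TAIR10.1 chromosome 4, 17579618 to 17582022, plus strand) measured 15.7 FPKM in air against 24.7 in ethylene, a 1.57-fold rise. Its log2 ratio was 0.65 with an SE of 0.24, and the deposited Cuffdiff q was 0.00429. This call depended on how the deposited statistic is read: against a standard normal curve its q was 0.104, and 2.60% of entries with a numeric statistic were then called higher and 3.24% lower. GH3.3 (AT2G23170, chromosome 2, 9863855 to 9866562, minus strand) measured 22.3 FPKM in air against 5.34 in ethylene, a 4.17-fold fall and the largest called change among the 10 genes. Its log2 ratio was -2.06 with an SE of 0.29 and a Cuffdiff q of 0.000878. The order of the pair therefore turned over: the level of GH3.2 was 0.707 times that of GH3.3 in air and 4.62 times in ethylene.

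GH3.4 (AT1G59500, chromosome 1, 21854493 to 21856614), whose coding sequence is the nearest to that of GH3.2, was listed at 0 FPKM in both conditions and was not tested. GH3.1 (AT2G14960, chromosome 2, 6451319 to 6453797), another family member of the auxin-responsive kind, was low, with 1.51 FPKM in air against 0.628 in ethylene. Its log2 ratio of -1.26 had an SE of 0.74, and the Cuffdiff q of 0.151 left it uncalled, with an unadjusted p of 0.0257. GH3.1 lay at the 12.1 percentile of tested entries in air and the 4.88 percentile in ethylene, where the error is wide.

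GH3.5 and GH3.6 encode a close pair of synthetases, of which GH3.5 is known to act on salicylic acid as well as on IAA. GH3.3, GH3.5 and GH3.6 are also known for a joint part in adventitious rooting of the hypocotyl. GH3.5 (AT4G27260, RefSeq symbol WES1, chromosome 4, 13653579 to 13656285) had the highest level of the 10 in both conditions, 88.6 FPKM in air and 103 in ethylene. Its log2 ratio was 0.22 with a 95% interval from -0.18 to 0.62, and its Cuffdiff q was 0.431. GH3.6 (AT5G54510, RefSeq symbol DFL1, chromosome 5, 22130964 to 22133688) measured 45.2 FPKM in air against 42.6 in ethylene, with a Cuffdiff q of 0.967.

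The change of GH3.6 was measured with little precision. Its SE was 0.78, and the 95% interval of its log2 ratio ran from -1.62 to 1.45, which allows a change of the size seen for GH3.17 or DAO2 in either direction. With an error derived from the deposited p instead, it ran from -1.22 to 1.05, which allows a change of the size of GH3.17 but not of DAO2. The deposited table places GH3.6 in a joined span of 158349 bases that 42 entries share. Of the 30 tested entries there, 0 were called by the deposited Cuffdiff q, and 0 had an unadjusted p under 0.05. The median SE in that span was 1.87, over tested entries of any level. A comparison at like level used the 5142 tested gene-naming entries with a mean FPKM within 2-fold of GH3.6 in air. Their median SE was 0.24, and 97.9% of their SEs were below that of GH3.6. The same span holds the joint entry AT5G54780/AT5G54865, listed at 0 FPKM in air and at 10787 in ethylene (q 0.537), which was named after its values were seen. Whether the joined span set the wide error of GH3.6 was not tested.

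GH3.17 and GH3.9 are not known as strongly auxin-induced genes, and the GH3.17 enzyme is known to prefer glutamate and to limit hypocotyl elongation. GH3.17 (AT1G28130, chromosome 1, 9825169 to 9828118, plus strand) measured 72.0 FPKM in air against 36.9 in ethylene, a 1.95-fold fall. Its log2 ratio was -0.96 with an SE of 0.22 and a Cuffdiff q of 0.000878. In absolute terms the level of GH3.17 fell by 35.1 FPKM, while that of DAO2 fell by 37.6 FPKM and that of GH3.3 fell by 16.9 FPKM. GH3.9 (AT2G47750, chromosome 2, 19560127 to 19563960), which has a known part in root growth, measured 0.0898 FPKM in air against 0.0396 in ethylene and was not tested.

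DAO1 and DAO2 are neighbouring 2-oxoglutarate-dependent dioxygenase genes on the minus strand, and DAO1 is the one known to account for most IAA oxidation in seedlings. Here DAO2 was the more abundant transcript. DAO2 (AT1G14120, chromosome 1, 4833396 to 4835089) measured 62.2 FPKM in air against 24.6 in ethylene, a 2.53-fold fall with a log2 ratio of -1.34, an SE of 0.25 and a Cuffdiff q of 0.000878. DAO1 (AT1G14130, chromosome 1, 4835724 to 4837771) measured 8.90 FPKM in air against 8.87 in ethylene. Its log2 ratio was -0.0054 with a 95% interval from -0.65 to 0.64 and a q of 0.995. The level of DAO2 was thus 6.99 times that of DAO1 in air and 2.78 times in ethylene. A gap of 634 bases separates the annotated genes, and RefSeq gives neither locus a symbol beyond its identifier.

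**Figure D2:**
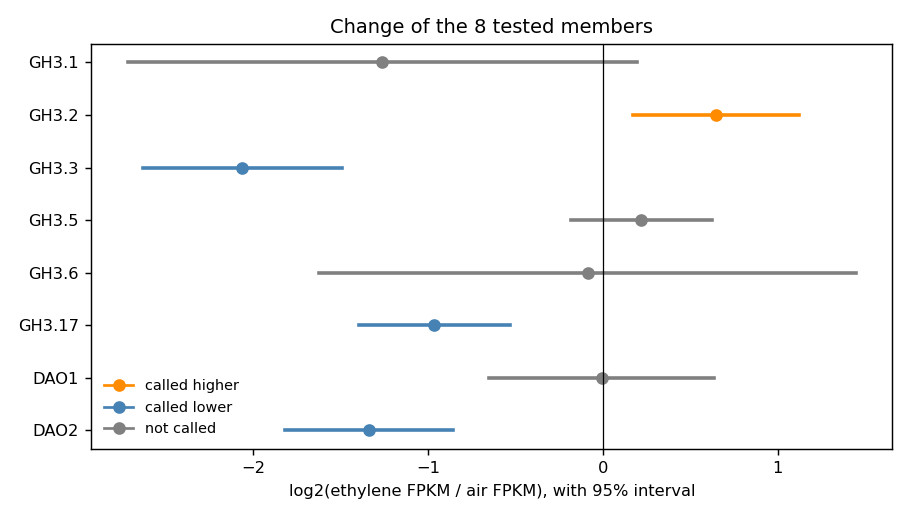
Points give the log2 ratio of the deposited FPKM values (ethylene over air) for the 8 tested genes and lines the 95% interval from the SE; orange is called higher, blue called lower and grey not called. The intervals of GH3.3, GH3.17 and DAO2 lie below 0, that of GH3.2 above it, and those of GH3.1 and GH3.6 are the widest.

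The order of the levels changed with the calls. In air it ran from GH3.5 through GH3.17, DAO2, GH3.6, GH3.3, GH3.2, DAO1 and GH3.1 to GH3.9 and GH3.4. In ethylene GH3.6 came second, ahead of GH3.17, and GH3.2 and DAO2 followed at nearly the same level (24.7 and 24.6 FPKM). With no values per library, neighbours in these orders cannot be tested against their spread. Summed over the 8 GH3 genes, the level was 245 FPKM in air and 213 in ethylene, a sum that fell by 13.1%. GH3.5 alone made up 36.1% of that sum in air and 48.4% in ethylene, and GH3.17 29.3% and 17.3%. The DAO sum went from 71.1 to 33.5 FPKM, and DAO1 made up 12.5% of it in air and 26.5% in ethylene. These sums and shares carry no test.

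The nearest relatives in sequence did not all share a response. Each GH3 coding sequence was aligned with each of the others, using the longest RefSeq model, and the 28 pairs shared from 60.2% to 90.9% of aligned bases. GH3.2 shared 90.9% with GH3.4 and 81.4% with GH3.3, GH3.5 shared 84.1% with GH3.6, and DAO1 shared 83.1% with DAO2. For each tested gene, the tested gene nearest to it in sequence was taken, which gave 5 pairs. The log2 ratio of GH3.2 exceeded that of GH3.3 by 2.71, with a 95% interval from 1.97 to 3.45 that treats both errors as independent. For DAO1 against DAO2 the difference was 1.33, from 0.53 to 2.13. GH3.5 exceeded GH3.17, to which it is only distantly related (64.9%), by 1.18, from 0.59 to 1.78, and GH3.1 against GH3.2 gave -1.91, from -3.44 to -0.38. GH3.5 and GH3.6 differed by 0.31, with an interval from -1.28 to 1.89 that is too wide to show whether they respond alike. These intervals are not adjusted for the 5 pairs.

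**Figure D3:**
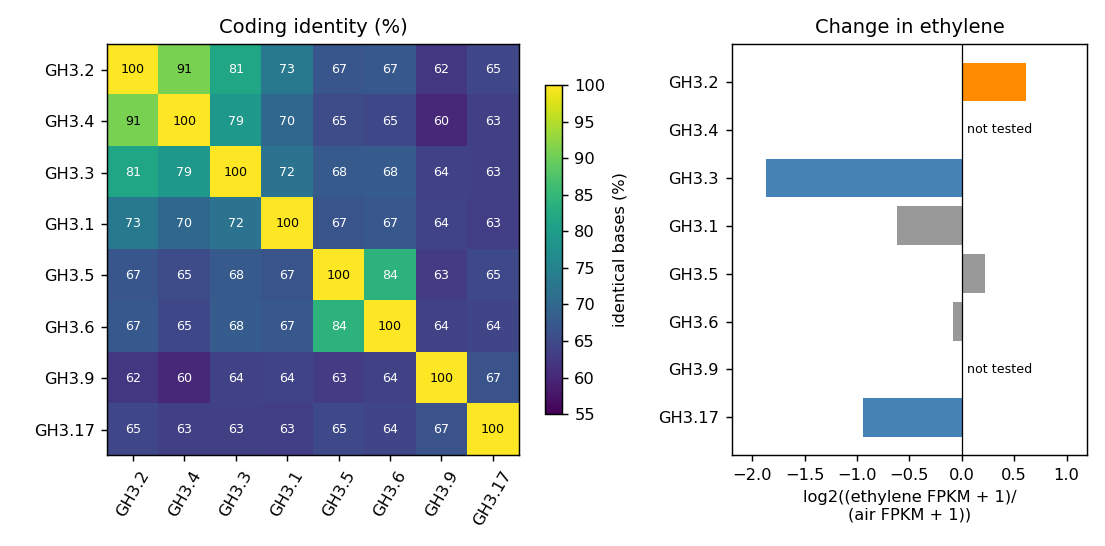
The left panel gives the percentage of identical bases between aligned coding sequences of the 8 GH3 genes, and the right panel the log2((ethylene FPKM + 1)/(air FPKM + 1)) of each gene in the same order, in orange for called higher, blue for called lower and grey for not called. GH3.2 and GH3.3 share 81.4% of bases and have bars on opposite sides of 0.

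Close copies also bear on how reads could be assigned. The longest run of identical coding bases was 65 for GH3.2 and GH3.4, 56 for GH3.2 and GH3.3, 42 for GH3.5 and GH3.6, and 34 for DAO1 and DAO2. The read length, and how reads that fit more than 1 gene were treated, are not stated in the sources used here. Reads that fall within such a run cannot be assigned by sequence alone, which leaves the 0 listed for GH3.4 and part of the level of GH3.2 uncertain. No other RefSeq gene overlaps GH3.2, GH3.3, GH3.17 or DAO2. Of 8 protein-coding genes flanking these 4, DAO1 among them, 6 were tested. Of those 6, 1 was called higher and 1 lower, beside 4.79% higher and 6.5% lower of all tested gene-naming entries. The higher one was CYP96A1, 8344 bases from GH3.3, and the lower one CYP81F3, 1969 bases from GH3.2. Each moved against its neighbour, and the other tested flanking genes were not called. CYP96A1 and CYP81F3 were named after their values were seen. GH3.9 overlaps the long noncoding RNA AT2G09955.

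Up to 250 bases before the annotated start are shown for GH3.2 with GH3.3 and for DAO1 with DAO2, the 2 most alike in coding sequence of the pairs whose interval of the difference lay to one side of 0. For DAO1 only the nearest 155 bases are shown, since the other 95 of its 250-base window lie in the neighbouring gene UCP3 (AT1G14140). The sequences are from the RefSeq TAIR10.1 genome, read 5′ to 3′ on the strand of the gene. Capitals mark matches on either strand to 4 motifs: TGTCTC and TGTCGG, forms of the element bound by auxin response factors, CACGTG, the G-box that PIF and other bHLH factors bind, and ATGNANCT, a loose form of the EIN3 site. No marked motifs overlap in these windows. The windows are chr4:17579368-17579617 for GH3.2, chr2:9866563-9866812 for GH3.3, chr1:4837772-4837926 for DAO1 and chr1:4835090-4835339 for DAO2, of which the first is on the plus strand and the others on the minus strand.
GH3.2: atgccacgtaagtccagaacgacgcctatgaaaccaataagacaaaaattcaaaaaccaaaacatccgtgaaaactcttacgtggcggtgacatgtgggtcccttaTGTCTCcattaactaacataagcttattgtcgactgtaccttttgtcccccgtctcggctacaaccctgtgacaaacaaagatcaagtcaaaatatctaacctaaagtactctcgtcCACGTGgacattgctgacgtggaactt
GH3.3: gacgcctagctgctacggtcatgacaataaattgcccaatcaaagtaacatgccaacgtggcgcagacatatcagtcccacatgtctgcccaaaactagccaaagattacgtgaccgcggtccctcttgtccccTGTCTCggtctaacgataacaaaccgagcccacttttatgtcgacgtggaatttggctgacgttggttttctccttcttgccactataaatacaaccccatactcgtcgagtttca
DAO1: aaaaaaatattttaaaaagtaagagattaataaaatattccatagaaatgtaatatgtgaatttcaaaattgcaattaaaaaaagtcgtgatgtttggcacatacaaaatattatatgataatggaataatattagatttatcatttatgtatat
DAO2: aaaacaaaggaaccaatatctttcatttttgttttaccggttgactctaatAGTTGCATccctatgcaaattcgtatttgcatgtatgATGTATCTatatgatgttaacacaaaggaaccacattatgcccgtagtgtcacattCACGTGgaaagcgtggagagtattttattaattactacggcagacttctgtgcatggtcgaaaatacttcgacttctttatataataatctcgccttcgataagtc

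GH3.2 and GH3.3 each held 1 copy of TGTCTC, starting 144 and 116 bases before the gene start. GH3.2 also held a CACGTG starting 27 bases before the start, which GH3.3 did not hold in this window. DAO2 held a CACGTG starting 106 bases before its start and 2 matches to ATGNANCT, starting 199 and 162 bases before it, while none of the 4 motifs was in the 250-base window of DAO1, UCP3 part included. Among all 10 genes, TGTCTC was within 250 bases of GH3.2, GH3.3 and GH3.5, that is 3 of 10, against 10.9% of 27443 protein-coding genes. CACGTG was there in 2 of 10 against 6.49%, ATGNANCT in 1 of 10 against 12.5%, and TGTCGG in 0 of 10 against 4.16%. Within 1000 bases TGTCTC was found before 6 of the 10 against 39.6%, ATGNANCT before 5 against 48.2%, CACGTG before 2 against 14.8% and TGTCGG before 2 against 14.6%. GH3.17, which fell, held none of the 4 motifs within 1000 bases. A match says only that the letters are there. Some windows reach into other annotated genes: that of DAO1 into UCP3 and that of GH3.9 into AT2G09955 at both lengths, and at 1000 bases also that of GH3.9 into ALG3 and AT2G09965 and that of DAO2 into DAO1.

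Beyond these 10 genes, the calls in the pathway lists fell on 1 further GH3 gene and on genes of other roles. In 5 lists of the pathway, 36 of 47 entries were tested, and 2 were called higher and 6 lower, beside the 4.79% higher and 6.5% lower of all gene-naming entries. Of the 11 other GH3 genes, several of which act on acids other than IAA, 6 were tested and only GH3.19 (AT1G48660) was called, 2.26-fold lower, from 12.4 to 5.51 FPKM (Cuffdiff q 0.000878). JAR1 (GH3.11), which makes the active jasmonate conjugate, was the most abundant of them, with 56.2 FPKM in air against 51.0 in ethylene (q 0.687). The list median of log2((ethylene FPKM + 1)/(air FPKM + 1)) was -0.40. Across all 19 GH3 genes, 12 were tested, 1 was higher and 3 were lower.

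Amidohydrolases, which release free hormone from amino acid conjugates, gave a single call, beside 11.3% called of all tested gene-naming entries. Of 6 tested entries covering 7 such genes, only ILL6 was called, 1.84-fold lower from 30.2 to 16.4 FPKM (Cuffdiff q 0.000878). ILL6 is known to cleave jasmonate conjugates. The shared entry of IAR3 and ILL5 had the highest level, 44.1 FPKM in air and 35.8 in ethylene, with a q of 0.264, and its 2 genes cannot be told apart. The list median was -0.13.

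Other routes of auxin storage held 2 calls, both lower, among 4 tested genes of 5, beside 6.5% lower of all tested gene-naming entries. IAMT1, which methylates IAA, measured 3.26 FPKM in air against 1.13 in ethylene (2.89-fold lower, Cuffdiff q 0.0417). UGT74E2, a glucosyltransferase of the auxin precursor indole-3-butyric acid, measured 33.6 against 23.0 FPKM (1.46-fold lower, q 0.0166). Neither call was kept when the statistic was read against a standard normal curve. UGT74D1, a further glucosyltransferase that acts on auxins, measured 39.5 against 36.8 FPKM with a q of 0.809. UGT84B1 was listed at 0 FPKM in both conditions, and the list median was -0.41.

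For IAA synthesis the list median was above 0, unlike in the lists before it. Of 9 tested genes among 14 for the TAA and YUCCA enzymes of IAA synthesis, YUC9 (0.806 to 4.11 FPKM, Cuffdiff q 0.0161) and TAR2 (2.52 to 6.25 FPKM, q 0.00486) rose and YUC8 (18.9 to 9.16 FPKM, q 0.000878) fell. These 2 higher and 1 lower stand beside 4.79% higher and 6.5% lower of all tested gene-naming entries. The call of TAR2 was not kept with the normal curve. TAA1, the most abundant, measured 32.4 against 36.8 FPKM (Cuffdiff q 0.619). The list median was 0.51, which is the value of a gene that was not called (Cuffdiff q 0.0877).

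Auxin receptors and activating response factors, which act upstream of auxin-inducible GH3 genes, gave 1 call among 11 tested genes. That is near the 11.3% called among all tested gene-naming entries. The receptor AFB1 measured 59.4 FPKM in air against 42.6 in ethylene (1.39-fold lower, Cuffdiff q 0.0428), a call not kept with the normal curve. AFB2, which had the highest mean over both conditions, measured 62.9 against 62.8 FPKM (q 0.994). The list median was 0.09.

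**Figure D4:**
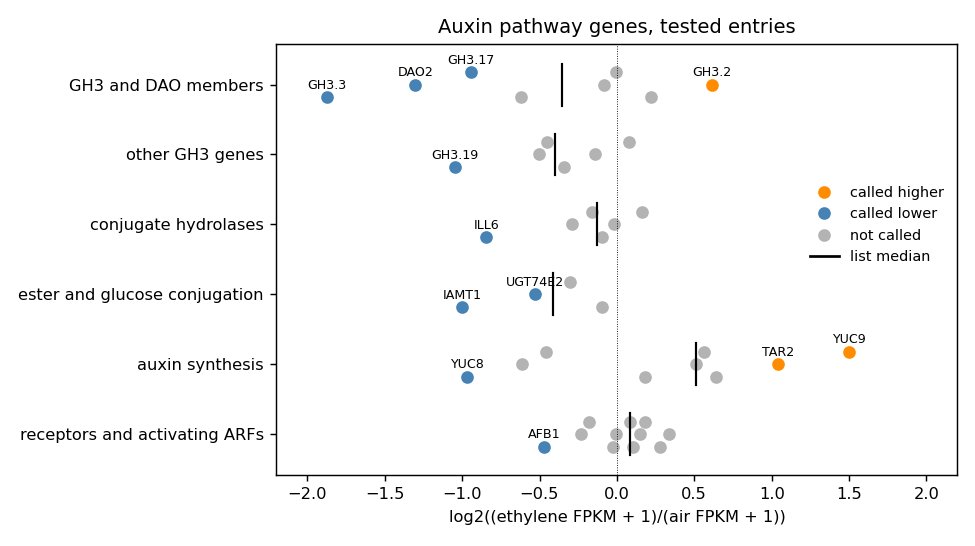
Each point is a tested entry at its log2((ethylene FPKM + 1)/(air FPKM + 1)), grouped by role, in orange for called higher, blue for called lower and grey for not called, and black bars give list medians. The median is below 0 for the GH3 and DAO genes (-0.35), the other GH3 genes, the hydrolases and the ester and glucose routes, and above 0 for auxin synthesis (0.51) and for receptors and response factors (0.09).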

How the data were processed

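RNA was sequenced from 4 libraries, 2 per condition. The submitters' processing notes name TopHat2 2.0.9 and Cuffdiff 2.2.1 with the TAIR10 build; annotation, strand setting and normalisation are not stated in the sources used here. The deposited values are FPKM, pooled by the authors to 1 per gene and condition, per the file headers. The statistic (a score), p-value and q-value columns are those of the authors' deposited Cuffdiff test. Recomputing a Benjamini-Hochberg adjustment over 21076 tested entries gave the deposited q to within 5.25e-07. The smallest deposited p was 5e-05, shared by 1200 entries. Converted to a standard normal quantile, p exceeded the statistic 1.43-fold (median), and which column is on the intended scale is unsettled. Calls were therefore also made from the statistic, which gave the SEs. SEs can also be derived from p, and for most but not all genes named here those are narrower. The named genes where they are wider, such as GH3.3 and DAO2, all have the smallest deposited p. Since that p is a limit, an SE derived from it can be too wide. For other named genes at the same p, such as GH3.19 and ILL6, the SE derived from p was still narrower.

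Depth per library is unknown. Low values were searched for whole-fragment steps over many step sizes and several length corrections. At the best setting, 37.0% of them in air and 40.0% in ethylene lay within 0.1 of a step. Some matches arise by accident, and values pooled over 2 libraries need not share a step, so this search could not give a depth. Counts leave out 324 entries that name no gene. There were 0 further columns of per-sample values.

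Members, lists, motifs and tests were chosen with earlier results of these data known. Named from the lists were the called genes, the gene of each list with the highest mean FPKM, SRT1 and SRT2, and the ethylene and dark-tissue check genes; UGT84B1 was named after its values were seen. No model across replicates could be fitted. Gene models and sequence came from RefSeq TAIR10.1, which matched all 10 members and overlapped 99.997% of 31174 single-locus entries. Coding sequences were aligned globally with Biopython 1.88 in Python 3.11.15. The adjustment code was tested on simulated data.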

Additional observations from a re-analysis of the deposited data

How the results depend on the processing

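Calls of the 8 tested members were made again under 5 alternatives (q thresholds of 0.01 and 0.1, the normal curve for the statistic, and adjustment over entries at 1 FPKM or more or over entries naming a gene), and 39 of 40 kept their side of the threshold. Under 4 others (pseudocounts of 0.1 and 0, and rescaling to the same upper quartile or median ratio), which leave q as deposited, 32 of 32 log2 changes kept their sign. A pseudocount cannot alter a sign, so those results were fixed in advance. The rescalings were slight, with upper quartiles of 31.4 FPKM in air and 31.3 in ethylene and a median log2 ratio of 0.0089. They could have turned only a change very near 0. Summing entries changes nothing here, since each member has a single entry. The call that was lost was that of GH3.2 under the normal curve (q 0.104), which leaves 0 members higher and 3 lower. The log2 change of GH3.1 ranged from -1.26 to -0.62 and that of GH3.3 from -2.06 to -1.87. Under the normal curve, the pathway lists held 1 higher and 3 lower calls, and all gene-naming entries together held 535 higher and 666 lower, against 995 and 1352 with the deposited q. At a q of 0.01 the pathway lists also held 1 higher and 3 lower, beside 697 higher and 995 lower among all gene-naming entries. The cause of the gap between the statistic and p was not tested. The remaining counts were within 1.5 times the deposited ones. No paired analysis was possible because the table holds 1 pooled value per condition, and for the same reason no library could be left out. Depth is unknown, so what it limits cannot be given. GH3.4 and GH3.9, with too few reads for the authors' test, can show neither a change nor its absence.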
